A study of Mus musculus with 6 samples.

Results

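The genes of oxidative phosphorylation encode the subunits of 5 protein complexes in the inner mitochondrial membrane, and they were followed in irradiated mouse keratinocytes that carry or lack C/EBPβ. Members were chosen by symbol: mRNAs of the mitochondrial genome for Nd, Co, Cytb and Atp subunits, and nuclear genes named Nduf, Sdh, Uqcr, Cox4 to Cox8 or Atp5. Of the 55416 genes in the count table, 110 matched. Of these, 8 were left out as pseudogenes by symbol and 14 because their mean over all libraries was under 1 CPM, the unit of read counts relative to library size. The remaining 88 members comprise 78 nuclear and 10 mitochondrial genes, and all 88 were among the 17659 genes tested. Ndufa4l2, at a mean of 2.21 CPM, was the lowest member, followed by Atp5s at 3.28 CPM. Ndufa4l2 passed the limit only through cells with C/EBPβ (wild type), at 4.30 CPM against 0.127 CPM in cells without it. The highest of the 14 genes under 1 CPM were Ndufs6b at 0.596 CPM and Cox6a2 at 0.532 CPM, and mt-Nd3, mt-Nd4l and mt-Atp8 were among them. Of the pseudogene symbols, Ndufb1-ps had a mean of 12.4 CPM.

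The cells were primary epidermal keratinocytes from newborn C57BL/6J:129 hybrid mice aged 1 to 2 days, wild type or knockout for Cebpb, the gene of the transcription factor C/EBPβ. Both genotypes were grown in 0.05 mM calcium, received 10 mJ/cm2 of UVB (312 nm lamp) on day 5 after plating, and were collected after 8 h. There were 3 wild type libraries (1, 2 and 3) and 3 knockout libraries (4, 5 and 6), every one irradiated, so the values compare genotypes after UVB and hold no response to UVB itself. Whether the 3 libraries of a genotype stem from different pups or dishes is not stated, so the p-values reflect only how far these samples scatter, which may be technical scatter.

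Library totals ranged from 107757415 to 122797031 counts in wild type and from 81256192 to 92987497 in the knockout. Cebpb counts were 12036 to 18184 in the wild type and 78 to 109 in the knockout libraries. Summed keratinocyte markers (6 of 6 detected) were 39423 to 44501 CPM in wild type, against 22547 to 23679 CPM in the knockout. Melanocyte markers (4 of 4 detected) summed to 455 to 514 CPM against 407 to 463 CPM. Markers of fibroblasts, endothelium and skeletal muscle each summed to under 7 CPM in every library, with Lum, Cdh5 and Myh8 at 0, and those of immune cells, adipocytes and erythroid cells to under 1 CPM. Summed CPM of 4 Y-linked genes was 60.7 to 68.1 in wild type and 0.101 to 0.158 in the knockout. Xist, the RNA of the inactive X in female cells, was at 415, 403 and 387 CPM in wild type and 567, 590 and 604 CPM in the knockout. Each wild type library thus held RNA typed as male and as female, while the knockout libraries held almost no Y-linked RNA. This difference in the mix of sexes and the genotype cannot be told apart. The part of these differences in the results was not tested, and in bulk samples fewer cells of a type and less RNA per cell cannot be told apart.

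Complexes I to IV form the respiratory chain. Complex I (NADH dehydrogenase) and complex II (succinate dehydrogenase) pass electrons to coenzyme Q, complex III (cytochrome bc1) passes them on to cytochrome c, and complex IV (cytochrome c oxidase) passes them to oxygen. Complexes I, III and IV pump protons across the membrane, and complex V, the ATP synthase, uses the return flow to make ATP. Complex II is encoded wholly by nuclear genes, whereas the others need subunits made from both genomes. Keratinocytes also draw much of their ATP from glycolysis.

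Nuclear respiratory genes are known for promoter sites of NRF1, of ETS-family factors such as GABP, and of YY1. RefSeq promoters of build GRCm38.p6, spanning 250 bases before to 50 after the transcription start, were at hand for 63 of the 78 nuclear members and for 27025 genes in all. Motifs were searched by exact letters on both strands. The NRF1 motif was found in 17 of 63 members (27.0%) and in 5.19% of all promoters. CCGGAAG (ETS) was found in 16 (25.4%, against 9.93%) and AAGATGGCG (YY1) in 7 (11.1%, against 1.64%). The core of the hypoxia response element was searched as ACGTG, in 14 members (22.2%, against 21.8%), and as GCGTG, in 34 (54.0%, against 35.2%). TTGCNNAA, as bound by C/EBP factors, was found in 8 (12.7%, against 12.2%). GCGTG can overlap an NRF1 match, and no match means only that these letters are not in the window.

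The 250 bases before the start are shown for genes whose levels are described below, 3 subunits of complex IV that were lower in the knockout and 1 subunit of complex II that was higher, with matched letters in capitals. Cox7b lies at chrX:106015450-106015699 (plus strand) and held none of the 6 motifs. Cox6b1, at chr7:30626115-30626364 (minus strand), held GCGTG on each strand and the ETS letters, here as their complement. Cox6a1, at chr5:115348959-115349208 (minus strand), held the NRF1, ETS and C/EBP letters. Sdhd, at chr9:50603850-50604099 (minus strand), held the NRF1, GCGTG and ETS letters, all read on the opposite strand. All 4 are written 5′ to 3′ along the gene's own strand.
Cox7b: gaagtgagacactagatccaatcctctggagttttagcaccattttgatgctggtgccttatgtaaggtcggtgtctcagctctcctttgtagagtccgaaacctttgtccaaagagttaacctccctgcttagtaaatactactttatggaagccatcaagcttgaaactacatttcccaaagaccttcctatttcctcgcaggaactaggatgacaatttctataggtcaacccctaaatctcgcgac
Cox6b1: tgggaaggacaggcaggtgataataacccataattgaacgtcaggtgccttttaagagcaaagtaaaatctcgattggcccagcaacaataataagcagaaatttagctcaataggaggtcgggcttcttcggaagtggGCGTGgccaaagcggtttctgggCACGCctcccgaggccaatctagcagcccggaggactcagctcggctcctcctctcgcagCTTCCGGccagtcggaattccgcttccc
Cox6a1: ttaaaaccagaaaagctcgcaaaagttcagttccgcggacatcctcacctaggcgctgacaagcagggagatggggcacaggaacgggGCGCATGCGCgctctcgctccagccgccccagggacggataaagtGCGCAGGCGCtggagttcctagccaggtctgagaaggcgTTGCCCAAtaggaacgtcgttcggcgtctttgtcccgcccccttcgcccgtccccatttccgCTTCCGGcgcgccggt
Sdhd: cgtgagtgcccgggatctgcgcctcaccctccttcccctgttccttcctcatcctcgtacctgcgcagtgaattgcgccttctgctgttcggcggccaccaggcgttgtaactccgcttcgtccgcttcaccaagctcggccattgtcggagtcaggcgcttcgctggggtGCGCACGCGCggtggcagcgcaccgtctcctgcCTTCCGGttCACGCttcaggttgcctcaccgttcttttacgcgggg

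The mitochondrial genome encodes 13 mRNAs, and their counted levels differed widely. mt-Co2, mt-Co3, mt-Atp6, mt-Nd3 and mt-Nd4l had means of 0.163 to 15.2 CPM, or 0.468 to 22.2 CPM per kb of exon. In each of these 5, 97.0% to 99.8% of the 150-base windows, the length of a read, also occurred in the transcript of another gene in the GENCODE M21 annotation. These other genes are copies of mitochondrial DNA in the nuclear genome. Of mt-Co1 and mt-Nd4, 23.6% and 59.2% of the windows were shared, and their means were 8703 and 695 CPM. The other 6 mRNAs shared no window. Of these, mt-Nd1, mt-Nd2, mt-Nd5 and mt-Cytb had more than 800 CPM in every library. mt-Nd6 had 19.4 to 24.3 CPM, and mt-Atp8 a mean of 0.189 CPM. How reads with several matches were counted is not given in the sources used here, so levels of the 5 shared mRNAs are uncertain, as are comparisons of them with other genes.

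**Figure D1:**
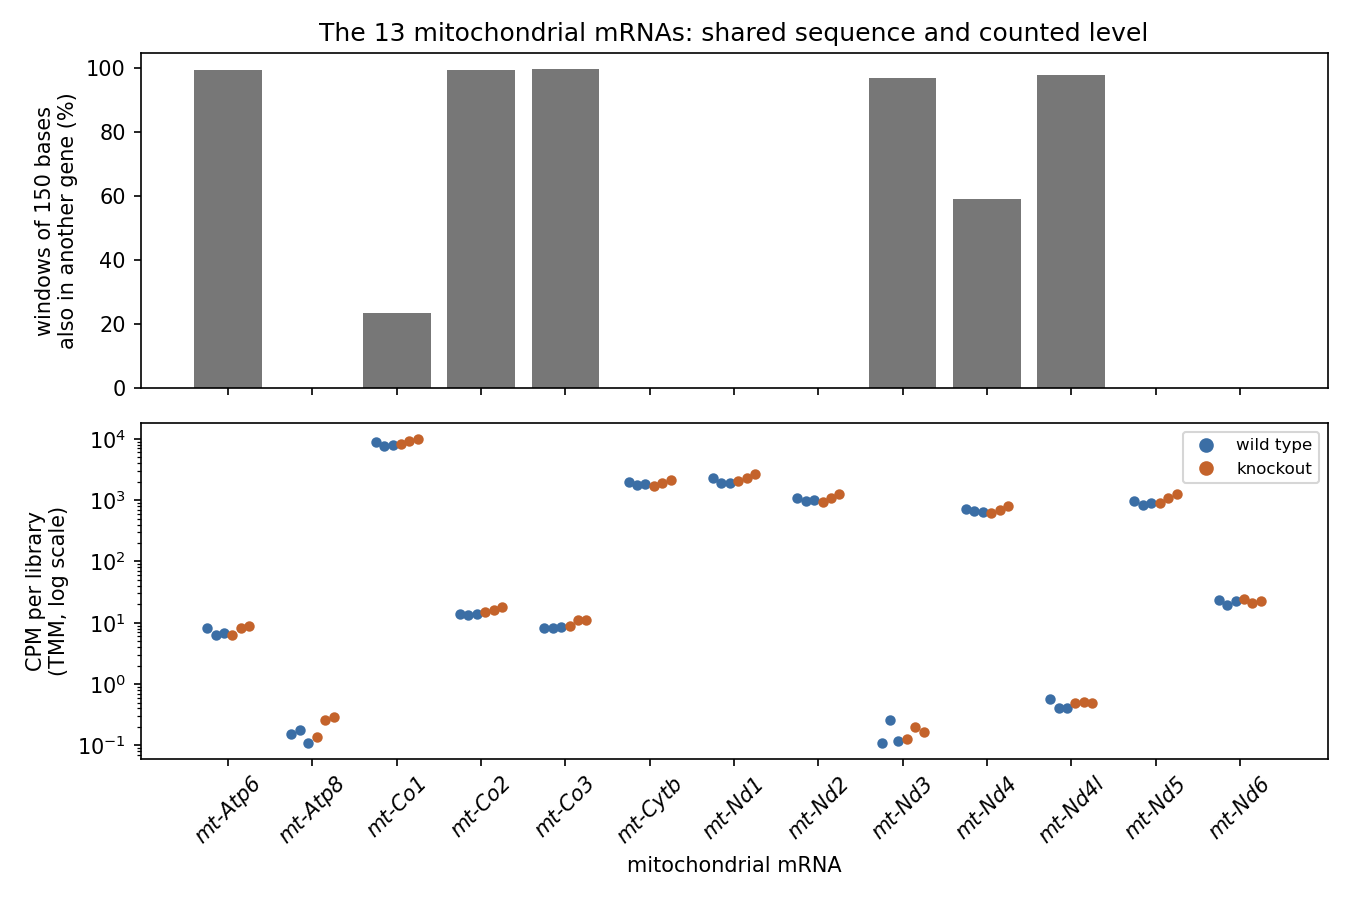
The upper bars give, for each of the 13 mitochondrial mRNAs, the percent of 150-base windows that also occur in another annotated gene. The points below give the TMM-scaled CPM of each library on a log axis, blue for wild type and orange for knockout. The 5 mRNAs with 97.0% or more of their windows shared all lie under 20 CPM in every library.

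Levels below are CPM after scaling with edgeR's trimmed mean of M values (TMM), and a gene is called at an adjusted p under 0.05 in edgeR's quasi-likelihood test over all genes. Log2 fold changes are knockout over wild type, with their standard error (SE). Of the 10 mitochondrial members, 3 rose in the knockout, 0 fell and 7 had no call, and the median log2 fold change was 0.15. Of all genes tested, 24.8% were called higher and 23.7% lower, with a median of 0.01. The risers were mt-Nd5 (0.26), mt-Co2 (0.27) and mt-Co3 (0.30), while mt-Nd4 and mt-Cytb had the smallest differences (both 0.06).

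mt-Nd5 encodes a proton-pumping subunit of complex I. Its levels were 966, 837 and 883 CPM in wild type and 914, 1069 and 1238 CPM in the knockout, a log2 difference of 0.26 ± 0.09 (SE, n = 3 per group, edgeR adjusted p = 0.0311). The groups overlapped, since knockout library 4 lay below wild type library 1. mt-Co3 encodes a core subunit of complex IV, with 8.35, 8.24 and 8.38 CPM in wild type and 8.76, 10.9 and 11.1 CPM in the knockout (0.30 ± 0.12, edgeR adjusted p = 0.0438). Its groups did not overlap, but nearly all of its windows are shared with nuclear copies, and Gm28437, a copy gene, rose as well (0.40 ± 0.09, edgeR adjusted p = 0.00175). With DESeq2 size factors mt-Co3 was not called (edgeR adjusted p = 0.0519). Of mt-Co2, 99.4% of the windows are shared. Its copy genes Gm13341 (0.41, edgeR adjusted p = 0.00306) and Gm28661 (0.28, 0.0125) rose as well, the latter not called without knockout library 6 (0.0643). mt-Co1, the catalytic subunit of complex IV and the highest member, was at 8751, 7748 and 8066 CPM against 8346, 9229 and 10075 CPM (0.17 ± 0.07, edgeR adjusted p = 0.0533). mt-Cytb, the only mitochondrial subunit of complex III, was at 1954, 1792 and 1808 CPM against 1722, 1930.3 and 2127 CPM (0.06 ± 0.07, edgeR adjusted p = 0.536). mt-Nd4 was at 722, 666 and 651 CPM against 627, 702 and 802 CPM (0.06 ± 0.08, edgeR adjusted p = 0.527).

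Single libraries decided these calls. Without wild type library 2 or 3, or knockout library 5 or 6, 0 of the 10 mitochondrial members were called, against 4 without wild type library 1 and 6 without knockout library 4. For mt-Nd5, the edgeR adjusted p became 0.0636 without knockout library 5, 0.147 without 6, 0.116 without wild type library 2 and 0.0972 without 3. For mt-Co2 these values were 0.0660, 0.147, 0.0935 and 0.0726. For mt-Co3 they were 0.148, 0.159, 0.0904 and 0.108, and 0.0718 without wild type library 1. mt-Co1 was called without knockout library 4 (0.24, edgeR adjusted p = 0.00534) and without wild type library 1 (0.22, 0.0275). mt-Nd1 was called in the same pair of fits (0.30, 0.00576, and 0.30, 0.0143), and mt-Nd2 without knockout library 4 (0.23, 0.0166).

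Under TMM the nuclear members leaned the other way. Of 78, 6 rose, 38 fell and 34 had no call, while 24.8% of all genes tested were called higher and 23.7% lower. The 38 include Ndufa4l2, a member only through its wild type level. The median log2 fold change of the 78 was -0.16, and 75 of them differed by less than 0.5 in size. In all genes tested, 39.2% differed by 0.5 or more. The TMM-scaled levels of 45 nuclear members, Ndufa4l2 among them, were lower in all 3 knockout libraries than in any wild type library. Those of 6 were higher, and 27 overlapped. Among all genes the shares without overlap were 27.6% lower and 28.7% higher.

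Changes of this size depended on how libraries were scaled. Scaling to library totals instead of TMM raised the median of all genes by 0.20 (from 0.01 to 0.21). With it, 21 nuclear members were called higher and 8 lower, with a median of 0.04, while 36.7% of all genes were called higher and 13.9% lower. Of the 38 nuclear members that fell under TMM, 30 were not called under library totals. Of the 10 mitochondrial members, 9 were called higher (median 0.35). Members called in 1 direction under TMM, library totals and DESeq2 size factors were 8 lower and 5 higher among the nuclear genes (13.9% and 24.1% of all genes tested). The 8 were Cox7b, Cox6b1, Cox7a2, Cox6a1 and Ndufa4l2 of complex IV, Uqcrq and Uqcr11 of complex III, and Atp5mpl of complex V. Ndufa4l2 is a member only through its wild type level, so its fall is tied to how members were chosen. The 5 were Ndufa6 and Ndufa13 of complex I, Sdhb and Sdhd of complex II, and Atp5c1 of complex V. Promoters were at hand for 5 of the 8 and for the 5. The NRF1 motif was in 1 of the lower and 3 of the higher genes, ETS letters in 3 and 2, and GCGTG in 3 and 4. The C/EBP letters and ACGTG were each in 1 and 0, and the YY1 letters in 0 and 0.

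**Figure D2:**
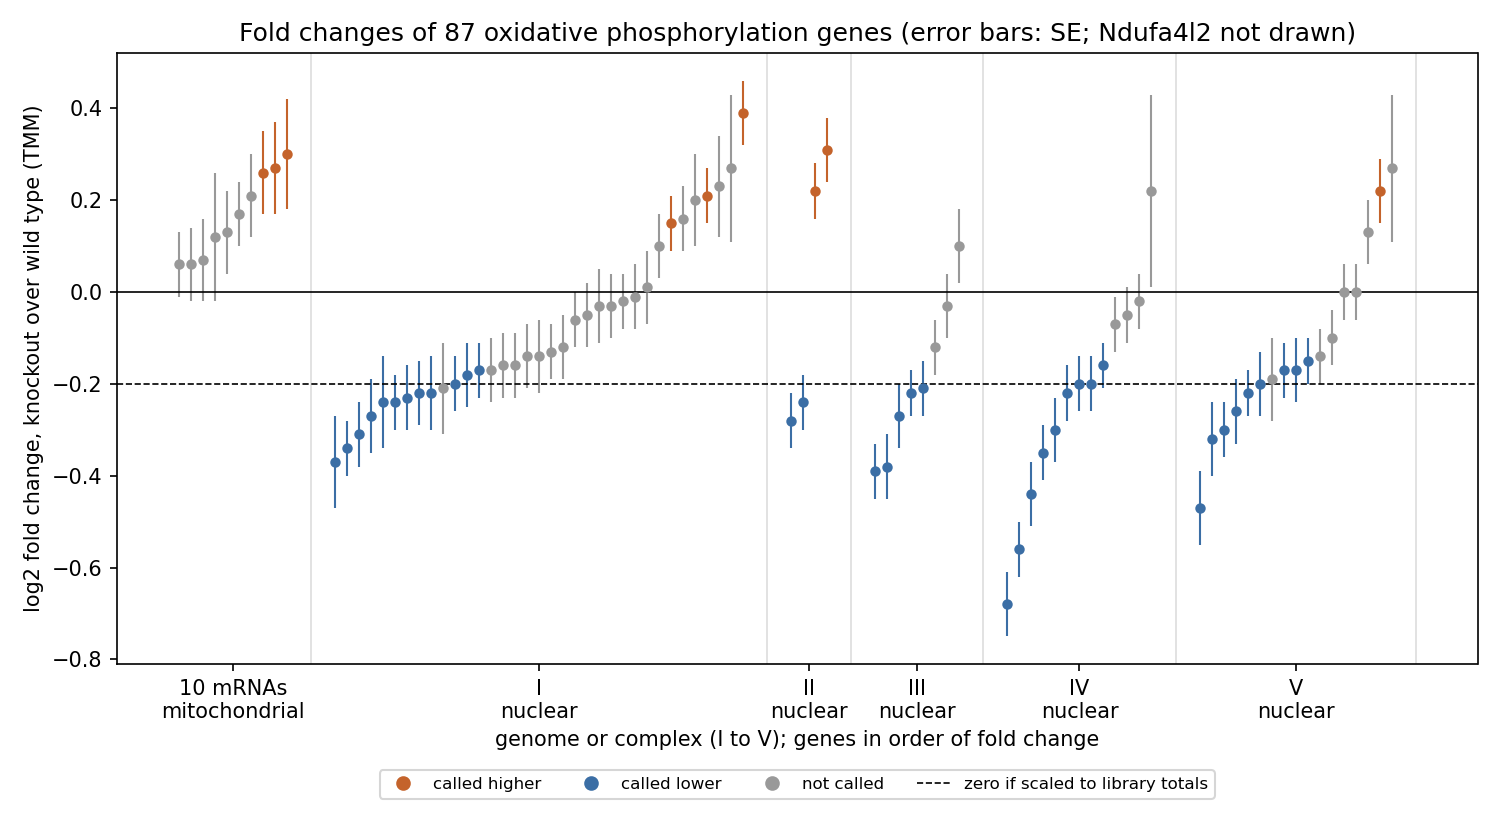
Points give the log2 fold change of knockout over wild type (TMM, SE as error bars) for the members, ordered by value within the mitochondrial genome and within complexes I to V; Ndufa4l2 is not drawn. Orange marks members called higher, blue lower and grey neither, and the dashed line marks where a fold change of 0 under library totals falls, 0.20 below the solid line. The mitochondrial members all lie above 0, and most nuclear members lie between the lines or below them.

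The ratio of mitochondrial to nuclear member counts needs no scaling between libraries. It was 1.76, 1.61 and 1.57 in the wild type and 1.89, 2.04 and 2.25 in the knockout libraries. All 3 knockout libraries lay above all 3 wild type libraries. The mean log2 ratio was 0.72 ± 0.09 (SD, n = 3) against 1.04 ± 0.12, a difference of 0.32 with a two-sided exact permutation p of 0.1, the smallest that 3 against 3 libraries can give. mt-Co1 alone held 55.9% of the counts of the mitochondrial members, so the ratio largely follows that gene. Restricted to the 5 mitochondrial members with no shared window, which leaves out mt-Co1, the difference was 0.31, with an exact permutation p of 0.1. The summed nuclear level was 8949, 8675 and 9103 CPM in wild type and 7739, 8024 and 8121 CPM in the knockout under TMM, a log2 difference of -0.16. Under library totals that difference was 0.04, so its direction flipped. The summed mitochondrial level was 15775, 13971 and 14331 CPM against 14643, 16368 and 18247 CPM, a log2 difference of 0.16 with overlapping groups (exact permutation p = 0.200), and of 0.36 under library totals (exact permutation p = 0.1).

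**Figure D3:**
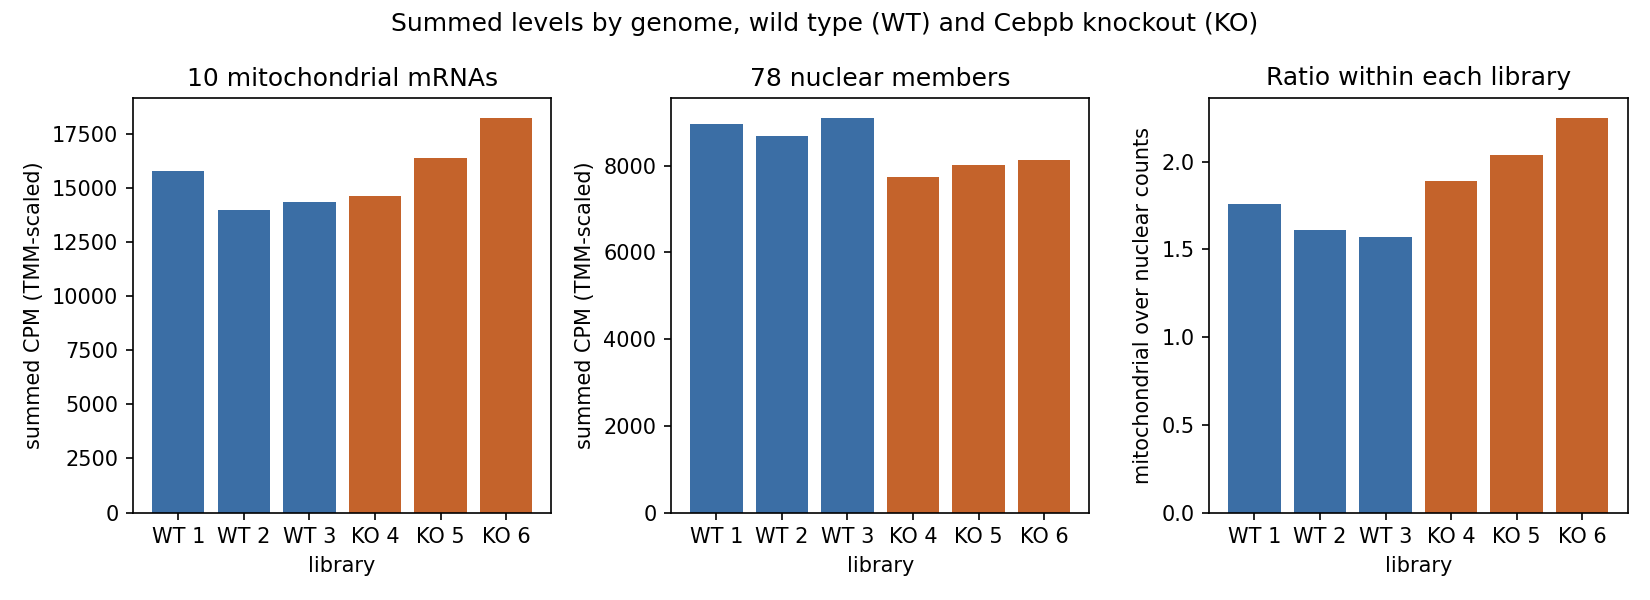
Bars give, for wild type (WT) and knockout (KO) libraries, the summed TMM-scaled CPM of the 10 mitochondrial members, that of the 78 nuclear members, and the ratio of their counts. The ratio is 1.57 to 1.76 in wild type and 1.89 to 2.25 in the knockout.

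Within the nuclear members, the share of counts taken by each complex moved by at most 1.30 percentage points. Complex I was at 21.5% ± 0.215 (SD, n = 3) in wild type and 22.8% ± 0.0676 in the knockout, and complex V was at 41.5% ± 0.0988 and 41.8% ± 0.309. Complex IV was at 20.8% ± 0.205 and 19.5% ± 0.329, and complex III at 11.7% ± 0.127 and 11.2% ± 0.0212. For these 4 complexes the groups did not overlap, and each had an exact permutation p of 0.1 (0.125 adjusted over the 5 complexes), the smallest possible. Shares of 1 total depend on each other, so a lower share of some complexes raises that of others. The summed level of complex I differed by -0.08 on the log2 scale under TMM and by 0.12 under library totals. For complex V these differences were -0.15 and 0.05. Complex II was at 4.54% ± 0.0175 and 4.72% ± 0.149 (exact permutation p = 0.200, also after adjustment). As a mean of log2 levels relative to all nuclear members, with each gene weighted equally, the difference was 0.12 for complex I, 0.19 for complex II, -0.44 for complex IV (which includes Ndufa4l2) and 0.07 for complex V, each with an exact permutation p of 0.1. Complex II, whose shares overlapped between groups, did not overlap on this scale. Complex III differed by 0.00 (exact permutation p = 0.9), with overlap. Ndufa4l2, at 13, 23 and 1 counts in the knockout libraries, also enters the mean over all nuclear members. All 5 of these differences therefore depend on that gene, and they were not computed without it.

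Of the 35 nuclear members of complex I, 3 rose, 12 fell and 20 were not called (median -0.14). Under library totals 11 were higher and 0 lower. For comparison with each complex, 24.8% of all genes tested were higher and 23.7% lower under TMM (36.7% and 13.9% under library totals). Ndufa6, an accessory subunit of the matrix arm, was at 41.5, 42.9 and 43.1 CPM in wild type and 51.5, 57.9 and 58.2 CPM in the knockout (0.39 ± 0.07, edgeR adjusted p = 0.000207), with no overlap and the same call without any 1 library. Ndufa13, an accessory subunit also known as GRIM-19, was at 62.5, 64.4 and 67.5 CPM against 74.3, 78.5 and 72.5 CPM (0.21 ± 0.06, edgeR adjusted p = 0.0104). Its groups did not overlap, 20.5% of its windows are shared with Tssk6, and without knockout library 5 the adjusted p was 0.0594.

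The 3 largest falls in complex I were called under TMM but not under library totals. Ndufs1, which carries iron-sulphur clusters near the NADH end, was at 68.4, 68.6 and 71.7 CPM in wild type and 57.5, 52.7 and 55.2 CPM in the knockout (-0.34 ± 0.06, edgeR adjusted p = 0.000372). Ndufs3, a core subunit of the arm that leads to coenzyme Q, was at 51.4, 57.3 and 56.4 CPM against 45.5, 43.7 and 44.1 CPM (-0.31 ± 0.07, edgeR adjusted p = 0.00134). Ndufa1, a small membrane subunit, was at 25.2, 25.1 and 28.6 CPM against 17.7, 21.9 and 21.5 CPM (-0.37 ± 0.10, edgeR adjusted p = 0.00489). In none of the 3 did the groups overlap. Under library totals their differences were -0.14, -0.11 and -0.17 and none was called.

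The 4 subunits of complex II split by pairs. Sdhb, the iron-sulphur subunit, was at 61.2, 60.5 and 61.1 CPM in wild type and 68.6, 69.2 and 75.2 CPM in the knockout (0.22 ± 0.06, edgeR adjusted p = 0.00881; 0.0519 without knockout library 6). Sdhd, a membrane anchor, was at 40.8, 41.4 and 41.7 CPM against 48.6, 49.8 and 55.1 CPM (0.31 ± 0.07, edgeR adjusted p = 0.00168). Sdha, the subunit that oxidises succinate, was at 189, 180 and 200 CPM against 163, 154 and 164 CPM (-0.24 ± 0.06, edgeR adjusted p = 0.00260). Sdhc, the other anchor, was at 117, 112 and 109 CPM against 87.4, 92.0 and 99.4 CPM (-0.28 ± 0.06, edgeR adjusted p = 0.00173). None of the 4 overlapped between groups. Under library totals Sdhb (0.42) and Sdhd (0.51) were called, and Sdha (-0.04) and Sdhc (-0.08) were not. The ratio of summed Sdhb and Sdhd counts to summed Sdha and Sdhc counts, chosen after these values were seen and not tested, was 0.334, 0.348 and 0.333 in wild type and 0.468, 0.483 and 0.495 in the knockout.

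Of the 8 nuclear members of complex III, 0 rose, 5 fell and 3 were not called (median -0.21), and under library totals 1 was higher and 2 lower. Uqcrq, a small subunit that contacts cytochrome b, was at 278, 260 and 263 CPM in wild type and 186, 212 and 216 CPM in the knockout (-0.39 ± 0.06, edgeR adjusted p = 0.000102). Uqcr11, the smallest subunit, was at 70.7, 71.9 and 75.8 CPM against 54.0, 59.5 and 54.4 CPM (-0.38 ± 0.07, edgeR adjusted p = 0.000165). Both were without overlap and were called under library totals (-0.19 and -0.18). Uqcrh, the acidic hinge protein beside cytochrome c1, was at 59.4, 60.4 and 68.5 CPM against 51.3, 50.1 and 54.6 CPM (-0.27 ± 0.07, edgeR adjusted p = 0.00520), and at -0.07 under library totals. The catalytic Rieske protein Uqcrfs1 (-0.21) and the core protein Uqcrc1 (-0.22) also fell but were at -0.01 and -0.02 under library totals, and Uqcrc2, Uqcrb and Uqcr10 did not pass.

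Complex IV held the largest falls among the members. Of its 14 nuclear members, 0 rose, 10 fell and 4 were not called (median -0.21), and under library totals 2 were higher and 5 lower. The 10 and the 5 include Ndufa4l2, a member only through its wild type level. Cox7b, a small membrane subunit, was at 77.0, 73.9 and 69.5 CPM in wild type and 44.9, 44.1 and 49.1 CPM in the knockout (-0.68 ± 0.07, edgeR adjusted p = 6.46e-07). Cox6b1, which lies on the outer face where complex IV meets cytochrome c, was at 189, 188 and 194 CPM against 118, 133 and 136 CPM (-0.56 ± 0.06, edgeR adjusted p = 1.54e-06). Neither gene's groups overlapped, and under library totals the differences were -0.48 and -0.36. These are the genes whose promoter letters are printed above, Cox7b with no motif and Cox6b1 with ETS and GCGTG letters.

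Several subunits of complex IV have tissue-restricted isoforms. Cox7a2, the widely expressed form, was at 77.0, 71.5 and 81.5 CPM in wild type and 52.0, 57.7 and 60.1 CPM in the knockout (-0.44 ± 0.07, edgeR adjusted p = 0.000107). Cox7a1, its heart and muscle form, was under 1 CPM on average and thus no member, at 0.206, 0.172 and 0.180 CPM against 0.410, 0.797 and 1.11 CPM (2.04 ± 0.40, edgeR adjusted p = 0.000532). Cox7a2l, a relative that joins complexes III and IV, was at 170, 171 and 177 CPM against 150, 157 and 158 CPM (-0.16 ± 0.05, edgeR adjusted p = 0.0242). The last call was lost without wild type library 3 (0.0681) or knockout library 4 (0.113) or 5 (0.0532), and the direction flipped under library totals (0.04). Summed skeletal muscle markers were 2.38 to 3.39 CPM in wild type and 3.46 to 3.78 CPM in the knockout, and their part in the Cox7a1 difference was not tested. Acta1 made up most of that sum (2.47 ± 0.636 and 3.47 ± 0.139 CPM), while Des (0.112 and 0.0175 CPM) and Myog (0.0708 and 0.0180 CPM) were lower in the knockout libraries, Ckm was at 0.0821 and 0.0697 CPM with overlap, and Myh8 was at 0.

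Cox6a1, the form found in most tissues, was at 181, 177 and 177 CPM in wild type and 135, 145 and 139 CPM in the knockout (-0.35 ± 0.06, edgeR adjusted p = 6.53e-05; -0.15 under library totals, called). Its muscle form Cox6a2, also no member, was at 1.13, 0.895 and 0.922 CPM against 0.0735, 0.101 and 0.0698 CPM (-3.57 ± 0.36, edgeR adjusted p = 5.86e-07). Cox6a2 and Cox7a1, both muscle forms, thus differed in opposite directions. Cox6b2, the testis form of Cox6b1, was at 6.13, 4.37 and 2.94 CPM against 4.63, 6.14 and 4.87 CPM, with overlap and no call (0.22 ± 0.21, edgeR adjusted p = 0.433; 0.0336 without wild type library 1). Cox4i1, an early-assembling subunit, was at 506, 466 and 543 CPM against 410, 447 and 441 CPM (-0.22 ± 0.06, edgeR adjusted p = 0.00819; 0.0536 without wild type library 3). Its hypoxia-linked form Cox4i2 was at 0.0841 CPM or less in every library. Cox8a fell under TMM (-0.20 ± 0.06, edgeR adjusted p = 0.0106) and was at 0.00 under library totals, while Cox8c was at 0.

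Ndufa4, once assigned to complex I and now placed in complex IV, was at 139, 127 and 133 CPM in wild type and 120, 131 and 133 CPM in the knockout (-0.05 ± 0.06, edgeR adjusted p = 0.510; 0.15 under library totals). Its relative Ndufa4l2 is known as a gene induced by hypoxia. It had 486, 374 and 530 counts in wild type and 13, 23 and 1 in the knockout, or 4.36, 3.22 and 5.31 CPM against 0.137, 0.232 and 0.0116 CPM (edgeR adjusted p = 1.10e-06). Ndufa4l2 is a member only through its wild type level, so this gap and its p-value are tied to how members were chosen. No fold is given because knockout library 6 held 1 count.

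Of the 17 nuclear members of complex V, 1 rose, 9 fell and 7 were not called (median -0.17), and under library totals 5 were higher and 1 lower. Atp5c1, the gamma subunit of the rotating central stalk, was at 84.9, 80.0 and 79.5 CPM in wild type and 93.6, 89.1 and 102 CPM in the knockout (0.22 ± 0.07, edgeR adjusted p = 0.0106). The call was lost without knockout library 6 (0.0698) or wild type library 3 (0.0568). Atp5mpl, a small proteolipid of the membrane part, was at 40.8, 42.0 and 40.0 CPM against 27.3, 29.1 and 32.1 CPM (-0.47 ± 0.08, edgeR adjusted p = 8.95e-05), and was called under library totals (-0.28). Atp5l and Atp5j2 encode subunits g and f of the membrane part. Atp5l was at 103, 101 and 102 CPM against 70.0, 89.8 and 85.7 CPM (-0.32 ± 0.08, edgeR adjusted p = 0.00308). Atp5j2 was at 110, 107 and 118 CPM against 86.3, 94.1 and 91.6 CPM (-0.30 ± 0.06, edgeR adjusted p = 0.000850). Neither was called under library totals (-0.12 and -0.10).

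The 3 genes Atp5g1, Atp5g2 and Atp5g3 encode the same mature subunit c, which forms the rotor ring of complex V. None was called under TMM. Atp5g1 was at 113, 111 and 106 CPM in wild type and 95.8, 104 and 98.4 CPM in the knockout (-0.14 ± 0.06, edgeR adjusted p = 0.0581). Atp5g2 and Atp5g3 differed by 0.00 ± 0.06 each, and by 0.19 and 0.20 under library totals, where both were called. The catalytic subunits Atp5a1 (-0.22) and Atp5b (-0.15) fell and were not called under library totals (-0.02 and 0.05, a change of sign for Atp5b). The Atp5b call was lost without wild type library 1 or 3 (edgeR adjusted p = 0.0624 and 0.0917), without knockout library 4, 5 or 6 (0.0610, 0.0978 and 0.0539), and with a minimum mean of 1 CPM (0.0581). Atpif1, the ATPase inhibitor, stands outside the symbol rule and was not called (0.07).

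**Figure D4:**
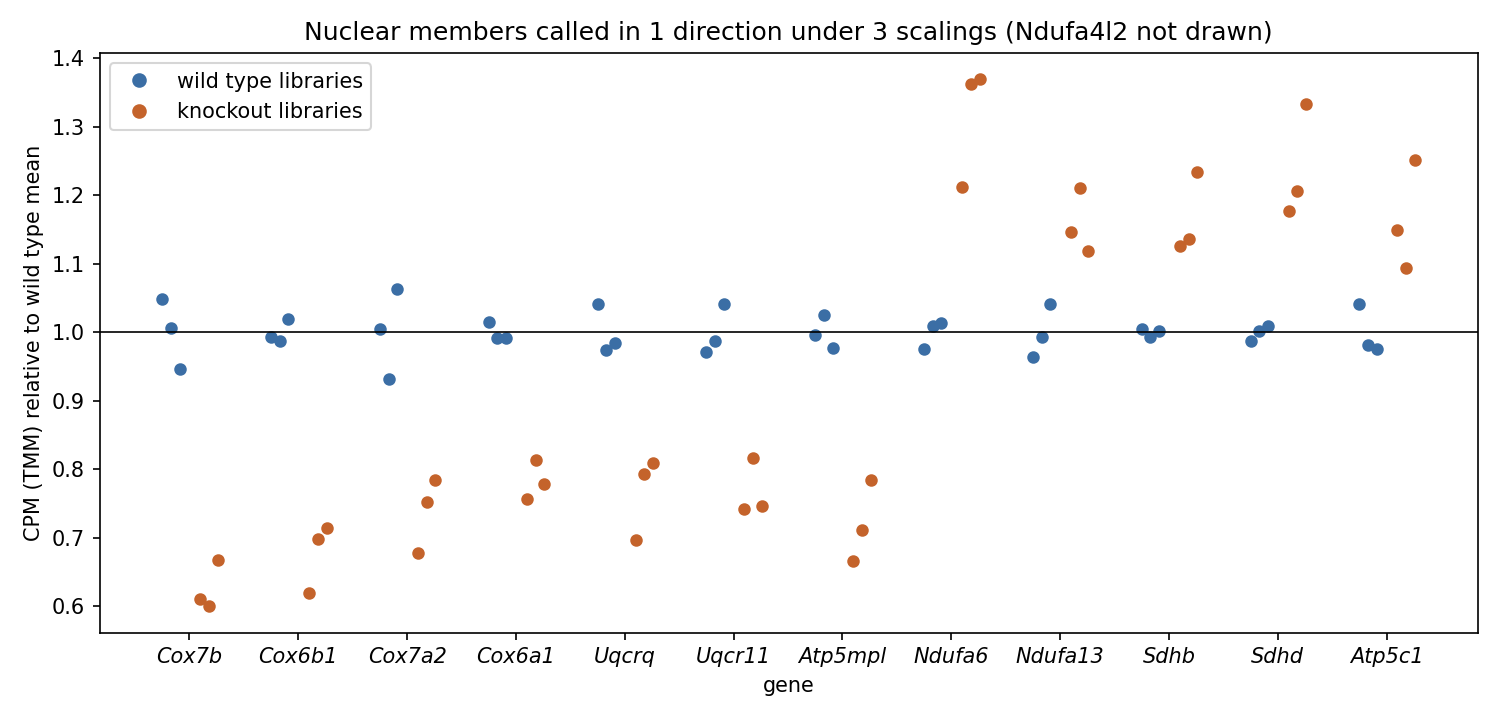
Each point is 1 library's TMM-scaled CPM divided by the gene's wild type mean, blue for wild type and orange for knockout, for the nuclear members called in 1 direction under 3 scalings (Ndufa4l2 not drawn). The groups do not overlap in any of them, and Cox7b stands lowest, at 44.9, 44.1 and 49.1 CPM in the knockout libraries.

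Leaving out single libraries left 3 to 8 nuclear members called higher and 27 to 37 lower. The 3 were found without knockout library 6. Of the 6 nuclear members that rose, 2 were called in all 6 such fits, and of the 38 that fell, 25 were. Ndufa4l2, a member only through its wild type level, is among the 25. The X chromosome carries 3 members, Ndufa1 (-0.37), Ndufb11 (-0.22) and Cox7b (-0.68), all called lower under TMM, as were 23.7% of all genes tested. Under library totals Cox7b was called (-0.48), and Ndufa1 (-0.17) and Ndufb11 (-0.02) were not. Xist was at 402 ± 14.0 CPM (SD, n = 3) in wild type and 587 ± 18.3 CPM in the knockout, and the part of sex in the X-linked members was not tested.

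The genes that build and feed the complexes were read from lists in the same fit. Counts in brackets give genes higher and lower under library totals. Every list is to be read against all genes tested, 24.8% higher and 23.7% lower under TMM (36.7% and 13.9% under library totals). A count near these shares is not particular to its list. Of 17 tested assembly factors of complex I, 0 rose and 5 fell (median -0.03; 5 and 2 under library totals), among them Ndufaf1 (-0.39), Ndufaf4 (-0.48) and Dmac1 (-0.36). Of 10 for complexes II and III, 1 rose and 2 fell (median -0.03; 2 and 0 under library totals). The riser was Sdhaf1, which helps insert iron-sulphur clusters into Sdhb, from 22.6 ± 2.18 to 47.2 ± 4.28 CPM (1.06 ± 0.09, edgeR adjusted p = 6.59e-08). The fallers were Uqcc2 (-0.31) and Sdhaf2 (-0.29), the latter of which loads FAD into Sdha. Both Sdhaf1 and its client Sdhb were higher, and both Sdhaf2 and its client Sdha were lower, under TMM. Sdhaf2 and Sdha were not called under library totals, and a link within these pairs was not tested.

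Of 23 assembly factors of complex IV, 3 rose and 5 fell (median -0.04; 5 and 1 under library totals). Higd1a, which binds complex IV and is known to be induced by hypoxia, fell from 91.4 ± 2.87 to 45.3 ± 2.50 CPM (-1.01 ± 0.07, edgeR adjusted p = 2.87e-09). Cox20, a chaperone of the mitochondrial Co2 protein, rose (0.63), as did Coa5 (0.22). Of 5 complex V factors, 0 rose and 1, Atpaf2, fell (-0.41; list median 0.01, and 2 higher and 0 lower under library totals), with Oxa1l (0.12) and Tmem70 (-0.04) not called. Oxa1l was called without wild type library 2 (0.21, edgeR adjusted p = 0.0324), and Tmem70 flipped under library totals (0.16).

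Among 11 electron carriers and enzymes that feed coenzyme Q, 1 rose and 5 fell (median -0.15; 3 and 3 under library totals). Sqor, which oxidises sulphide, fell from 18.1 ± 0.440 to 8.27 ± 1.69 CPM (-1.13 ± 0.13, edgeR adjusted p = 1.69e-06). Prodh, which oxidises proline, fell from 8.32 ± 0.892 to 4.14 ± 0.309 CPM (-1.01 ± 0.13, edgeR adjusted p = 8.51e-06). Etfdh, which takes electrons from fatty acid oxidation, rose from 43.3 ± 1.25 to 62.2 ± 0.927 CPM (0.52 ± 0.06, edgeR adjusted p = 4.63e-06). Of 13 genes for coenzyme Q synthesis, 1 rose (Coq10a, 0.41) and 4 fell, among them Coq4 (-0.38) and Coq8b (-0.32), with a median of -0.10 (1 and 0 under library totals). Of 18 genes of the TCA cycle, which supplies NADH and succinate, 2 rose and 6 fell (median -0.09; 6 and 3 under library totals). Smallest in p were Idh2 (-0.53), Ogdh (-0.43) and Pdha1 (-0.36).

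Of 28 genes for upkeep and expression of the mitochondrial genome, 2 rose and 9 fell (median -0.08; 8 and 2 under library totals). Elac2, which trims mitochondrial tRNA ends from the long transcripts, fell from 43.8 ± 2.71 to 22.6 ± 1.35 CPM (-0.95 ± 0.08, edgeR adjusted p = 5.68e-08), and Trmt10c (-0.38) and Fastkd5 (-0.45), which also act on mitochondrial RNA, fell. Tfam, which packages and transcribes mitochondrial DNA, was not called (-0.14 ± 0.07, edgeR adjusted p = 0.130) and flipped under library totals (0.06). Polrmt, the mitochondrial RNA polymerase, fell (-0.20 ± 0.08, edgeR adjusted p = 0.0472) but was called in only 1 of the fits that leave out a library, the one without knockout library 5. Without wild type libraries 1, 2 and 3 its adjusted p was 0.0678, 0.143 and 0.0501, and without knockout libraries 4 and 6 it was 0.0890 and 0.239. Of 77 genes of the mitochondrial ribosome, 3 rose and 27 fell (median -0.13; 14 and 3 under library totals). Smallest in p were Mrps7 (-0.46), Mrpl13 (0.49) and Mrpl19 (-0.41).

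Of 13 tested regulators of mitochondrial biogenesis, 1 rose and 5 fell (median -0.19; 4 and 2 under library totals). Esrra, a nuclear receptor that acts on respiratory genes, rose from 79.8 ± 1.87 to 121 ± 11.3 CPM (0.61 ± 0.07, edgeR adjusted p = 2.05e-06). Pprc1, a coactivator of the PGC-1 family, fell from 149 ± 5.64 to 102 ± 2.08 CPM (-0.54 ± 0.06, edgeR adjusted p = 9.68e-07), and Sirt1 (-0.39) and Gabpa (-0.29) fell. Nrf1 was at 14.3, 21.3 and 17.3 CPM against 16.6, 11.2 and 12.2 CPM, with overlap (-0.40 ± 0.16, edgeR adjusted p = 0.0506). It was called without knockout library 4 (0.00254) and without wild type library 1 (0.00770). Ppargc1a held 0 to 2 counts in every library and was not tested, and Ppargc1b was at 0.169 ± 0.0521 and 0.0712 ± 0.0296 CPM and not called. Of the list genes named as fallen, Dmac1, Uqcc2, Sdhaf2, Atpaf2, Coq4, Coq8b, Trmt10c, Polrmt and Gabpa were not called under library totals.

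Genes of metabolism known to respond to hypoxia had the lowest median of these lists. Of 20 tested, 0 rose and 18 fell (median -1.10), and under library totals 1 was higher and 16 lower. Bnip3, a receptor for removal of mitochondria, fell from 74.4 ± 9.45 to 7.98 ± 1.57 CPM (-3.22 ± 0.13, edgeR adjusted p = 1.76e-10). Pdk1, which blocks pyruvate entry into the TCA cycle, fell from 40.0 ± 0.917 to 13.8 ± 1.09 CPM (-1.54 ± 0.08, edgeR adjusted p = 3.98e-10), and the glucose transporter Slc2a1 from 176 ± 17.5 to 63.8 ± 2.66 CPM (-1.46 ± 0.07, edgeR adjusted p = 1.37e-10). Hif1a, the oxygen-regulated factor, was at 140 ± 5.15 and 82.7 ± 0.999 CPM (-0.75 ± 0.06, edgeR adjusted p = 2.09e-08). Of the hypoxia-linked genes of complex IV described above, Higd1a and Ndufa4l2 were lower in the same libraries. The latter counts as a member only through its wild type level. Cox4i2, also named above as hypoxia-linked, never exceeded 0.0841 CPM. Its groups overlapped and it was not tested, so no direction can be given for it.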

How the data were processed

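The 6 RNA-seq libraries share 1 deposited table of raw counts per gene, which are whole numbers that the authors did not normalise. The submitters' processing notes name STAR, HTSeq, FastQC and DESeq2, and the builds GRCm39 and mm39. For versions, annotation release, strand setting and reads with several matches, nothing is given in the sources used here. Without a known strand setting, overlapping and antisense genes, mt-Nd6 among them, cannot be told apart from their partners.

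Symbols came from a GENCODE M21 table (52083 of 55416 identifiers matched), so some are older names. Genotypes were compared with the quasi-likelihood test of edgeR (edgeR 4.0.16, R 4.3.3, robust dispersion) on genes passing filterByExpr (minimum count 10), with TMM scaling and Benjamini-Hochberg adjustment over all 17659 genes. The SE of a log2 fold change is its size over the square root of the F statistic. Sums and ratios used two-sided exact permutation tests. Alternatives were DESeq2 size factors, library totals, other filters, DESeq2 1.42.0, limma voom (limma 3.58.1) and leaving out each library. The test was run on simulated counts of 17659 genes: of 50 genes lowered by 1 on the log2 scale 45 were called, and of 50 lowered by 0.5, 28. Few genes were changed there, by 0.5 or 1 in either direction, and every gene had the same dispersion. That run therefore says nothing about smaller changes or the choice of scaling. The thresholds of that simulation check were revised after its first run.

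Members, lists and the rule for named genes were chosen with earlier results of these data known. That rule takes the mitochondrial mRNAs at both ends of the fold changes, the 3 largest called rises and falls of each complex, isoform pairs, all Sdh genes, X-linked members, 3 genes with the smallest p of each list, and fixed regulators. Some genes the rule takes are left out of the text. Other members named beside them were chosen after their values were seen. Promoters are RefSeq's for GRCm38.p6, an older build than that of the counts. Of the 63, 56 had their last 25 bases on the sense strand of an M21 transcript.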

Additional observations from a re-analysis of the deposited data

How the results depend on the processing

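No paired analysis was possible because the groups share no replicate numbers. Replacing TMM by library totals moved most counts of calls. The counts then became 21 nuclear members higher and 8 lower and 9 mitochondrial members higher. By complex they were 11 higher and 0 lower (I), 0 lower (II), 1 and 2 (III), 2 and 5 (IV) and 5 and 1 (V). In the lists, higher and lower calls became 5 and 2 (complex I assembly), 2 and 0 (complexes II and III assembly), 5 and 1 (complex IV assembly), 2 and 0 (complex V assembly), 3 and 3 (electron carriers), 0 lower (coenzyme Q), 8 and 2 (mitochondrial genome upkeep), 6 and 3 (TCA cycle), 4 and 2 (biogenesis), 1 higher (hypoxia) and 14 and 3 (mitochondrial ribosome). All genes shifted by 0.20 under that scaling, with 36.7% of them called higher and 13.9% lower.

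Leaving out 1 library at a time gave 3 to 8 nuclear members higher and 0 to 6 mitochondrial members higher. By complex the ranges were 6 to 13 lower (I), 1 to 2 higher (II), 0 to 1 higher (IV and V) and 5 to 8 lower (V). In the lists they were 3 to 5 lower (complex I assembly, and complex IV assembly), 0 to 1 higher (complex V assembly), 1 to 2 higher (electron carriers), and 1 to 2 higher and 5 to 8 lower (mitochondrial genome upkeep). The ratio of mitochondrial to nuclear counts kept its direction, at 0.25 to 0.38 on the log2 scale. Weighting genes equally, the complex III difference was 0.00, taken relative to a mean over all nuclear members that includes Ndufa4l2.

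Small log2 fold changes changed sign. Of the 78 nuclear members, 61 were below 0 under TMM and 31 under library totals. Genes taken by the naming rule that changed sign there were Atp5g1 0.06, Atp5g2 0.19, Cox7a2l 0.04, Ndufa4 0.15, Tfam 0.06 and Tmem70 0.16. Atp5g2 was at 0.01 with a minimum mean of 1 CPM and at -0.05 to 0.03 without single libraries. Atp5g3 was at -0.01 with DESeq2 size factors and in DESeq2, and at -0.03 to 0.02 without single libraries. Over the fits without single libraries, Cox6b2 ranged from -0.02 to 0.51, mt-Cytb from -0.02 to 0.13, mt-Nd4 from -0.03 to 0.14 and mt-Nd6 from -0.01 to 0.13. The cause was not tested.

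Genes with few counts, among them mt-Atp8, limit what can be said at this depth.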
